A study of Mus musculus with 12 samples.

Results

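The cells described here are Müller glia that carried RNA of at least 1 of 3 hypoxia marker genes, in mouse retina profiled by Drop-seq, a droplet method that counts unique molecular identifiers (UMIs) at the 3′ end of transcripts cell by cell. A cell entered the Müller gate when it had at least 200 genes above 0 and at least 3 of the 7 gate genes Rlbp1, Slc1a3, Car14, Crym, Dapl1, Spc25 and Dkk3 above 0. Gate cells with Ndufa4l2, Adm or Apln above 0 are called marker-positive, and the other gate cells marker-negative. Of 24772 cells with at least 200 genes, 3420 passed the gate, and 1204 of these were marker-positive against 2216 marker-negative. The cells were selected on the detection of these 10 genes, so the values of the 10 are given as a description.

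The study compared 12 libraries of C57B6 mouse retina. OIR stands for oxygen-induced retinopathy: pups with a foster mother breathed 75% oxygen from postnatal day 7 to day 12 and room air afterwards, and retinas were taken at day 14 (P14, 2 days in room air) or day 17 (P17). In the normoxic (NORM) groups, pups stayed in room air with their own mother until the same ages, so the foster mother differs between the groups together with oxygen. OIR had 5 libraries at P14 (2 depleted of rods, 3 of whole retina) and 3 at P17 (1 depleted of rods, 2 of whole retina), whereas NORM had 1 library of each age and fraction. The labels do not say which animals went into a library or whether animals were pooled, so p-values measure the spread between libraries, which may be technical. Libraries held 569 to 3409 such cells with medians of 432 to 1794.5 UMIs per cell, and 14 of 25458 barcodes occurred in more than 1 library.

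Müller glia span the retina from the photoreceptors to the vitreous, recycle glutamate and feed neurons with lactate. Under low oxygen, prolyl hydroxylases no longer mark the alpha subunits of the hypoxia-inducible factors (HIF) for degradation, and HIF then raises glycolytic enzymes, glucose and lactate carriers and secreted factors such as vascular endothelial growth factor A (Vegfa). In OIR, high oxygen prunes the retinal capillaries and the return to room air leaves the central retina hypoxic. Ndufa4l2 (chr10:127514967-127517154, plus strand, GRCm38) encodes a mitochondrial protein that lowers complex I activity in hypoxia. Adm (chr7:110627661-110629820, plus strand) encodes adrenomedullin and Apln (chrX:48025146-48034853, minus strand) encodes apelin, both of which are secreted peptides that act on vessels.

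The marker-positive cells matched the Müller label in genes that the gate did not use. Glul, which encodes glutamine synthetase, was detected in 97.7% of marker-positive and 93.0% of marker-negative cells, against 20.3% of cells outside the gate. Sox9, a transcription factor of Müller glia, was detected in 61.6% of marker-positive and 38.1% of marker-negative cells, against 1.77% outside the gate. The water channel Aqp4 was found in 55.3% of marker-positive and 48.3% of marker-negative cells, against 1.78% outside the gate. Defining markers of other cell types were rare in marker-positive cells, namely Cldn5 of endothelium in 0.831%, C1qb of microglia in 0.665% and Pax2 of astrocytes in 1.08%. Rgs5 of pericytes was found in 8.47% and Pdgfra of astrocytes in 7.72% of marker-positive cells. These shares pool OIR and NORM, and most of them were higher in NORM marker-positive cells. Pax2 was found in 3.65% of NORM and 0.750% of OIR marker-positive cells, Pdgfra in 10.9% and 7.31%, and Rgs5 in 11.7% and 8.06%. Cldn5 was found in 2.19% of NORM and 0.656% of OIR marker-positive cells, and C1qb in 0% and 0.750%.

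The proximal promoters of 4 genes are shown because their RNAs carry the findings: Adm as a marker of the rule, Vegfa and Ldha as genes that were higher in marker-positive cells, and Bnip3 as a gene whose difference was positive in OIR and negative in NORM. Each window runs 5′ to 3′ on the gene's strand from 250 bases before to 50 after the start in the RefSeq promoter table (GRCm38.p6), and capitals mark the core of the element that HIF binds, ACGTG or GCGTG, on either strand (CACGT or CACGC in the printed strand). These lie at chr7:110627407-110627706 (plus strand) for Adm, chr17:46032328-46032627 (minus strand, the first of 2 windows listed) for Vegfa, chr7:138909457-138909756 (minus strand) for Bnip3 and chr7:46845554-46845853 (plus strand, the first of 2 windows) for Ldha.
Adm: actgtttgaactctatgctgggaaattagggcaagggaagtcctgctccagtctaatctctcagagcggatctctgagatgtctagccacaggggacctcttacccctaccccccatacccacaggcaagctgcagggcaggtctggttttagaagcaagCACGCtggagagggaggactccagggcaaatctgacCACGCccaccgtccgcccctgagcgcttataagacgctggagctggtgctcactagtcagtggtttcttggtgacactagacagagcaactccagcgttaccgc
Vegfa: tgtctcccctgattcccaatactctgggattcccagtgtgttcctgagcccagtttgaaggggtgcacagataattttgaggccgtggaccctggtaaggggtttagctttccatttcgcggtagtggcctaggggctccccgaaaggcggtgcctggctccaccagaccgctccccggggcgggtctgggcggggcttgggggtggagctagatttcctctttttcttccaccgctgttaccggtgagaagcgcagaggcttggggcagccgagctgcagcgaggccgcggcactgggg
Bnip3: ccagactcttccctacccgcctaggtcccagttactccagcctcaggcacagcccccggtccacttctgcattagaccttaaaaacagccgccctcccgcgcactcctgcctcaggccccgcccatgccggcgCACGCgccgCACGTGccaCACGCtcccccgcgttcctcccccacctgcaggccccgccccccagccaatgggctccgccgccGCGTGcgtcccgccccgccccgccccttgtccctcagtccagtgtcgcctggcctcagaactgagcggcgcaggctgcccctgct
Ldha: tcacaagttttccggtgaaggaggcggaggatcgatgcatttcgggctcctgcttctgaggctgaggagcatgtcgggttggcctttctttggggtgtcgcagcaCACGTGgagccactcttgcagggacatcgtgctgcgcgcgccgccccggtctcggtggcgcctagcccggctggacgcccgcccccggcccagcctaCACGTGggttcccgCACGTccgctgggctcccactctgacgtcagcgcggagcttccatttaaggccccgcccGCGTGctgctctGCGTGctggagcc
The Adm window held 0 ACGTG and 2 GCGTG, the Bnip3 window 2 and 3, the Ldha window 5 and 2, and the Vegfa window shown held none of either. The other Vegfa window, at chr17:46025114-46025413 (minus strand, not printed), held 1 ACGTG and 1 GCGTG, and the other Ldha window held 0 and 2. CACGTG reads as ACGTG on both strands and is counted on each. Of 32851 promoter windows in the table, 19.6% held ACGTG, 32.4% held GCGTG and 43.8% held at least 1 of them, so a match is common and describes letters only. The table had windows for 13 of 18 genes looked up, without Ndufa4l2, Bsg, Cox4i2, Plod2 and Bnip3l.

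Marker-positive cells made up a large share of OIR Müller cells and a small share of NORM Müller cells. In OIR, 39.5%, 48.9%, 59.5%, 48.2% and 45.9% of gate cells were marker-positive in the P14 libraries (rod-depleted replicates 1 and 2, then whole-retina replicates 1 to 3), and 57.3%, 43.4% and 59.7% in the P17 libraries (rod-depleted, then whole-retina replicates 1 and 2). In NORM the shares were 13.5% and 13.8% at P14 (rod-depleted, whole retina) and 6.59% and 6.25% at P17. Every OIR library lay above every NORM library. The last of these, the whole-retina NORM library at P17, had only 3 marker-positive among 48 gate cells (exact 95% binomial interval 1.31% to 17.2%), and intervals of this kind cover counting error only. Because the 3 genes were chosen with their OIR and NORM levels in these cells known, this difference is given without a test.

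Marker-positive cells were also the more deeply sequenced ones. Their median UMI count was 1095 to 3157 in the 8 OIR libraries and 1098 to 1507 in the 4 NORM libraries, against 648 to 2424 in OIR and 525 to 1133.5 in NORM for marker-negative cells. With every cell thinned to 500 UMIs, the share was 20.6% to 53.9% in OIR (median 37.0%) and 3.78% to 8.70% in NORM (median 7.46%), again without overlap. Thinning left out 2405 OIR and 1691 NORM cells of any type with fewer UMIs. Rods and rod bipolar cells had lower shares than Müller gate cells: among cells gated as rods, 2.05% in OIR (6745 cells, median 1065 UMIs) and 0.586% in NORM (1535 cells, 563 UMIs) had any of the 3 RNAs, and among rod bipolar cells 2.72% in OIR (4156 cells, 1247 UMIs) and 0.564% in NORM (1950 cells, 1173.5 UMIs). How much of the marker RNA in rods and bipolar cells is free RNA, doublets or expression was not tested. The 3 RNAs were not particular to Müller cells: Ndufa4l2 was found in 81.5% of OIR and 74.3% of NORM pericyte-gate cells, and Apln in 44.5% of OIR and 14.7% of NORM endothelial-gate cells. Any of the 3 was found in 82.3% of OIR and 75.2% of NORM pericyte-gate cells, and in 60.5% of OIR and 39.7% of NORM endothelial-gate cells. With cells pooled in the same way, the Müller gate had lower shares, 49.1% in OIR and 11.0% in NORM.

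**Figure D1:**
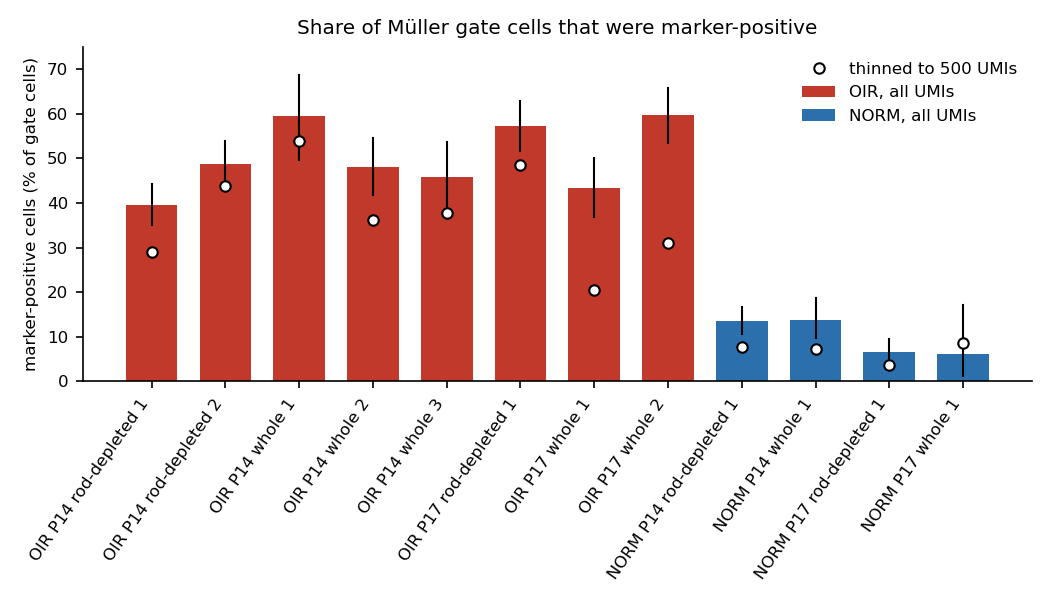
Share of Müller gate cells that were marker-positive in each library, in percent of gate cells (bars, with exact 95% binomial intervals), and the share with each cell thinned to 500 UMIs (open circles). The 8 OIR libraries sit between 39.5% and 59.7%, all above the 4 NORM libraries, which sit between 6.25% and 13.8%.

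Ndufa4l2 was the marker that most members carried. It was the only marker detected in 578 of the 1204 cells, against 102 for Adm alone and 94 for Apln alone. Another 174 cells had Ndufa4l2 and Adm, 137 Ndufa4l2 and Apln, 15 Adm and Apln, and 104 all 3 genes. In OIR, 423 of 1067 marker-positive cells had 2 or 3 of the genes, and 304 rested on a single UMI of any of them. In NORM, 7 of 137 had 2 or 3 of the genes and 87 rested on a single UMI, so most NORM members met the rule at its lower edge. At the edge of the gate, 75 marker-positive cells had exactly 3 gate genes, and 106 cells with a marker lay just outside with 2 gate genes.

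Over the gate cells of all libraries, the 3 RNAs occurred together more often than their separate frequencies within a library and a class of like UMI count give. Ndufa4l2 and Adm were both detected in 278 gate cells, where 180 were expected from such frequencies (ratio 1.54). For Ndufa4l2 and Apln the counts were 241 and 150 (1.61), and for Adm and Apln 119 and 64.0 (1.86). With cells thinned to 500 UMIs the ratios were 1.44, 1.77 and 1.84. The counts pool OIR and NORM. Of the 137 NORM members, 1 had Ndufa4l2 and Adm alone, 1 Ndufa4l2 and Apln alone, 4 Adm and Apln alone, and 1 all 3 genes. The counts of both pairs with Ndufa4l2 thus came almost wholly from OIR cells, and no ratio was computed for NORM alone. These are descriptions of the genes that chose the cells.

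Within marker-positive cells, the mean Ndufa4l2 level, in UMIs per 10000 UMIs of a cell, was 14.4, 22.1, 17.9, 17.6 and 14.0 in the P14 OIR libraries and 25.4, 9.77 and 12.8 in the P17 OIR libraries, in the order given above. In the 3 NORM libraries with at least 10 marker-positive cells it was 7.72 and 4.13 at P14 and 9.25 at P17 (rod-depleted). The OIR libraries lay above these NORM libraries. Adm was 1.71 to 6.26 in OIR (median 3.24) and 2.09 to 3.15 in NORM, and Apln was 1.13 to 5.12 in OIR (median 2.83) and 1.67 to 3.01 in NORM, so both ranges overlapped.

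What else differed in marker-positive cells was tested against marker-negative Müller cells of the same library, weighted so that their UMI counts followed the same distribution. This used 11 libraries (8 OIR and 3 NORM), since the whole-retina NORM library at P17 had too few members. In 2 rod-depleted P17 libraries 1 marker-positive cell had no marker-negative cell of like depth and was left out. Of 1954 genes tested, 134 passed an adjusted p of 0.05 (6.86%), 78 higher (3.99%) and 56 lower (2.87%) in marker-positive cells. The balance of directions turned with the filter on low values, to 92 higher and 155 lower with genes down to a mean of 0.2 per 10000 and to 59 higher and 110 lower with no such filter. The median difference over all tested genes was -0.01 on the log2(value + 0.5) scale, which is the scale of every difference below and which understates changes of low genes.

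Among secreted factors Vegfa was higher in marker-positive cells. Vegfa (chr17:46016993-46032369, minus strand), the growth factor that drives vessel sprouting and leakage, averaged 15.8 to 29.7 per 10000 in OIR marker-positive cells (median 19.9), against 6.74 to 13.8 (median 8.44) in OIR marker-negative cells. In the 3 NORM libraries it was 9.67, 17.4 and 13.2 in marker-positive cells, against 6.76, 12.9 and 4.95 in marker-negative cells (P14 rod-depleted, P14 whole retina, P17 rod-depleted). All 8 OIR marker-positive values lay above the highest OIR marker-negative value, and the marker-positive cells were the higher ones in 11 of 11 libraries. Over the 11 libraries the mean was 19.2 ± 5.96 in marker-positive and 9.16 ± 3.03 in marker-negative cells (SD), a difference of 1.03 ± 0.0957 (SE, adjusted p = 9.55e-07). The Vegfa difference was 1.01 with cells called positive by Ndufa4l2 (11 libraries), 1.29 by Adm (9 libraries) and 1.18 by Apln (10 libraries). Each of these calls took cells whatever their other markers, so the 3 sets of cells overlap. In NORM libraries alone it was 0.75 (adjusted p = 0.0215). The other secreted vessel factors tested did not pass: CYR61 differed by 0.04 (adjusted p = 0.828), CTGF by -0.14 (adjusted p = 0.747) and Tgfb2 by 0.12 (adjusted p = 0.415). With Vegfa, 1 of 4 tested list members was higher and none lower (median 0.08).

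**Figure D2:**
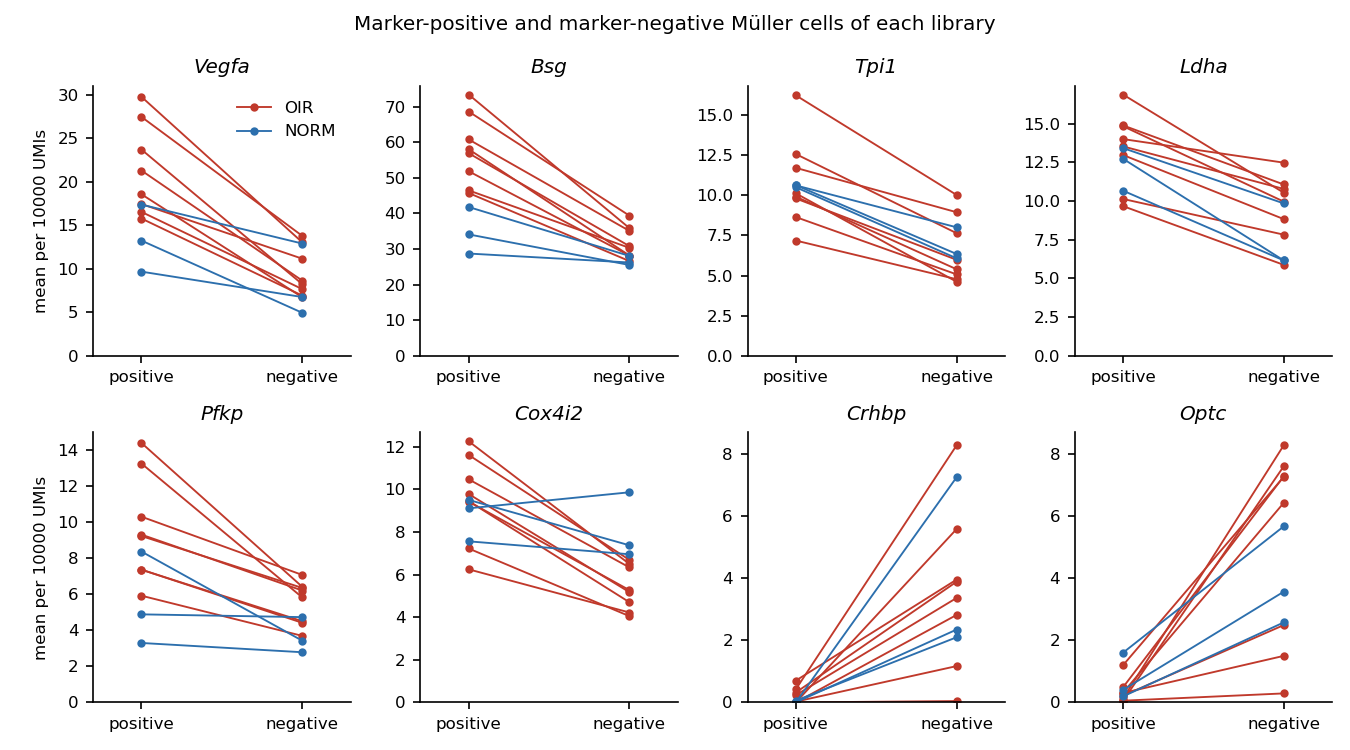
Mean level per 10000 UMIs of 8 genes in marker-positive cells (left) and UMI-matched marker-negative cells (right) of the same library, 1 line per library, OIR in red and NORM in blue. Vegfa, Bsg, Tpi1, Ldha and Pfkp are higher in marker-positive cells in 11 of 11 libraries, Cox4i2 in 10, and Crhbp and Optc are lower in 11 of 11.

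Enzymes of glycolysis were higher as well: 7 of 12 tested members of the list passed, none was lower, and all 12 differences were positive (median 0.36). Tpi1, triosephosphate isomerase, averaged 10.7 ± 2.31 per 10000 in marker-positive and 6.63 ± 1.79 in marker-negative cells of the 11 libraries (SD). In NORM Tpi1 was 10.5 to 10.6 in marker-positive cells and 6.08 to 8.01 in marker-negative cells. Each library's own pair went the same way (0.67 ± 0.0732, adjusted p = 3.37e-06, 11 of 11 libraries). Ldha, the lactate dehydrogenase chain that turns pyruvate into lactate, averaged 13.1 ± 2.19 in marker-positive and 9.05 ± 2.25 in marker-negative cells (0.53 ± 0.0762, adjusted p = 0.000121, 11 of 11). Pfkp, a platelet-type phosphofructokinase that commits sugar to glycolysis, averaged 8.50 ± 3.33 in marker-positive and 5.03 ± 1.41 in marker-negative cells (0.65 ± 0.0997, adjusted p = 0.000264, 11 of 11).

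The other 4 members that passed had smaller differences. Gpi1, which forms fructose 6-phosphate, differed by 0.46 (adjusted p = 0.00978), the aldolase Aldoa by 0.38 (adjusted p = 0.00512) and the pyruvate kinase Pkm by 0.33 (adjusted p = 0.0149). Slc16a1, a carrier of lactate and other monocarboxylates, differed by 0.40 (adjusted p = 0.0334). Its partner Bsg (basigin, chr10:79704491-79711969, plus strand), the chaperone that brings lactate carriers to the membrane, was chosen here after its values were seen and belongs to no list. Bsg stood at 45.7 to 73.4 per 10000 in OIR marker-positive cells (median 57.5), against 26.6 to 39.4 (median 30.6) in OIR marker-negative cells. The 2 OIR ranges did not overlap (all libraries 0.71 ± 0.0755, adjusted p = 2.21e-06, 11 of 11). In the NORM libraries alone the Bsg difference was 0.37 (adjusted p = 0.374). In the NORM libraries alone, Ldha was the member of the glycolysis list that passed (0.72, adjusted p = 0.0225). Tpi1 (0.61, adjusted p = 0.0985), Pfkp (0.48, adjusted p = 0.557) and Pkm (0.23, adjusted p = 0.901) did not pass there, nor did Gpi1 (0.074), Aldoa (0.055) and Slc16a1 (-0.11), the first pair at an adjusted p of 0.989. Several glycolytic genes have processed pseudogenes, and how reads that match more than 1 place were counted is not given in the sources used here.

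Further HIF targets followed the same direction. Of 11 tested members of the hypoxia list, 5 were higher, none was lower and 10 had a positive difference (median 0.38). Besides Vegfa these were Cox4i2, the subunit that replaces Cox4i1 in cytochrome oxidase under low oxygen (9.33 ± 1.80 in marker-positive and 6.10 ± 1.68 in marker-negative cells, 0.59 ± 0.0946, adjusted p = 0.000326, 10 of 11 libraries), and Plod2, a collagen lysyl hydroxylase (0.54, adjusted p = 0.00306). The mitophagy receptor Bnip3l differed by 0.50 (adjusted p = 0.00185) and the glucose carrier Slc2a1 by 0.38 (adjusted p = 0.00774). Summed over the list's 32 genes, OIR marker-positive cells held 52.4 to 81.0 per 10000 (median 64.4), against 34.6 to 45.5 (median 40.5) in OIR marker-negative cells, with no overlap. These sums include Vegfa, given above, and by themselves do not show a rise of the other members. In NORM the sums were 45.8 to 52.8 in marker-positive and 37.6 to 44.1 in marker-negative cells. Cox4i2 differed by 0.77 in OIR libraries alone (adjusted p = 3.52e-06) and by 0.12 in NORM libraries alone (adjusted p = 0.95). Plod2 (0.28, adjusted p = 0.926), Bnip3l (0.41, adjusted p = 0.793) and Slc2a1 (0.11) did not pass in NORM alone either.

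Matrix and filament genes included the largest increase. Fn1, which encodes fibronectin, averaged 1.96 ± 1.01 per 10000 in marker-positive and 0.682 ± 0.425 in marker-negative cells (1.04 ± 0.147, adjusted p = 9.85e-05, 11 of 11 libraries). Sparc, a secreted collagen-binding protein, stood at 63.9 to 91.4 in OIR marker-positive cells, against 37.7 to 58.7 in OIR marker-negative cells, without overlap (0.48 ± 0.0754, adjusted p = 0.000297). Of 5 tested members of the matrix list 3 were higher (Fn1, Sparc and Plod2) and 1 was lower, the collagen Col9a1 (-0.64, adjusted p = 4.19e-05). Among 8 tested genes of reactive gliosis, the response of glia to injury, 3 were higher and none lower (median 0.12). These were the filament genes Vim (24.5 ± 8.74 in marker-positive and 15.4 ± 4.78 in marker-negative cells, 0.63, adjusted p = 0.000297, 11 of 11) and Nes (0.52, adjusted p = 0.0434), and the calcium-binding S100a6 (0.79, adjusted p = 0.0186).

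Genes of the normal work of Müller glia were higher more often than lower among those that passed. Of 22 tested members of the homeostasis list 4 were higher and 1 lower (median 0.10). Glul stood at 66.2 to 110 per 10000 in OIR marker-positive cells (median 98.2), against 38.8 to 84.1 (median 65.7) in OIR marker-negative cells. In NORM it was 94.6 to 132 in marker-positive and 85.5 to 131 in marker-negative cells, which overlap almost fully. Over all libraries Glul differed by 0.36 ± 0.075 (adjusted p = 0.0031, 10 of 11), Sox9 by 0.43 (adjusted p = 0.00609), the tetraspanin Cd9 by 0.44 (adjusted p = 0.000361) and the membrane protein Gpm6b by 0.32 (adjusted p = 0.00774). Ptgds, a prostaglandin D synthase, was lower (-0.84, adjusted p = 0.00455).

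Stress genes contributed a few members each. Of 19 immediate early genes 4 were higher and none lower (median 0.07): Ier3 (0.82, adjusted p = 0.00597), Atf3 (0.73, adjusted p = 0.00295), Klf4 (0.72, adjusted p = 0.00486) and Ier2 (0.26, adjusted p = 0.0401). Of 7 genes of endoplasmic reticulum and amino acid stress 2 were higher, the chromatin-bound stress regulator Nupr1 (0.94, adjusted p = 0.00295) and Ddit3 (0.41, adjusted p = 0.0439). The metal-binding metallothioneins Mt2 (0.50, adjusted p = 0.000508) and Mt1 (0.37, adjusted p = 0.00385) were higher among 8 genes of metal and oxidative stress (median 0.11). Of 30 nuclear-encoded respiratory chain genes none was higher and 1 lower, Cox8a (-0.30, adjusted p = 0.0477), with a list median of -0.07. Among 6 mitochondrially encoded genes mt-Nd1 was lower (-0.27, adjusted p = 0.0172), and among 5 interferon genes Ifitm3 was lower (-0.63, adjusted p = 0.0401). Since 2.87% of all tested genes were lower and 3.99% higher, 1 lower gene of 30 is near the background, and the 1 lower gene of 6 and of 5 says little about these short lists.

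Other genes with large increases lay outside these lists. They were Trf, which encodes the iron carrier transferrin (1.03, adjusted p = 0.00243, 10 of 11 libraries), and Hsd17b2, a steroid dehydrogenase (1.01, adjusted p = 0.000353, 11 of 11). The signalling adaptor Appl2 (0.86), the calcium-binding S100a11 (0.84), the tubulin Tubb2b (0.80) and the actin-bundling Fscn1 (0.80) were each higher in 11 of 11 libraries. Rgs2, a brake on G protein signalling, was higher by 0.80 (10 of 11), the neuropeptide gene Npy by 0.76 (10 of 11) and Fam162a, a mitochondrial protein induced by hypoxia, by 0.76 (9 of 11). Their adjusted p ranged from 0.000326 for S100a11 to 0.00423 for Npy. In NORM libraries alone 11 of the 48 named genes tested passed. Trf (0.68, adjusted p = 0.466), Appl2 (0.63, adjusted p = 0.392), S100a11 (0.49, adjusted p = 0.858) and Fscn1 (0.28, adjusted p = 0.932) did not pass there. Npy (0.045), Rgs2 (0.0027) and Fam162a (-0.074) did not pass there either. With cells called positive by Ndufa4l2, Trf (0.73, adjusted p = 0.0707) and Npy (0.64, adjusted p = 0.188) did not pass.

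The decreases were led by genes seen in a subset of marker-negative cells. Crhbp, which encodes a protein that binds corticotropin-releasing hormone, averaged 0.160 ± 0.234 per 10000 in marker-positive and 3.71 ± 2.49 in marker-negative cells (-2.43 ± 0.238, adjusted p = 9.55e-07, lower in 11 of 11 libraries). Optc, the gene of the vitreous glycoprotein opticin, averaged 0.448 ± 0.495 in marker-positive and 4.81 ± 2.80 in marker-negative cells (-2.34 ± 0.233, adjusted p = 1.01e-06, 11 of 11). Crhbp was detected in 1.41% of marker-positive and 8.71% of marker-negative cells, and Optc in 3.65% of marker-positive and 11.6% of marker-negative cells. In all, 56 marker-positive of 353 gate cells had either RNA. The gap junction gene Gja1 (-1.61), the taurine carrier Slc6a6 (-1.41), the collagen Col18a1 (-1.22) and Pcp4 (-1.19), which encodes a calmodulin-binding peptide, followed. Further down came the pyrophosphatase Ppa1 (-1.06), the neurotrophin receptor Ntrk2 (-1.06) and Tsc22d1 (-0.93). Astrocytes also express Gja1 and Ntrk2.

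Marker RNA of other cells moved with this comparison. The summed amacrine list (7 genes, Gad1 and Slc6a9 among them) was 8.55 to 14.7 per 10000 in OIR marker-positive and 10.6 to 20.7 in OIR marker-negative cells, lower in 8 of 8 libraries. The rod list (10 genes) was 1.13 to 31.2 in OIR marker-positive and 1.68 to 60.3 in OIR marker-negative cells, lower in 7 of 8. The astrocyte list (6 genes) was 7.11 to 21.3 in OIR marker-positive and 7.00 to 19.7 in OIR marker-negative cells, and the pericyte list (9 genes) was 0.452 to 11.3 in OIR marker-positive and 1.56 to 13.0 in OIR marker-negative cells. The endothelial list (9 genes, Kdr among them) went the other way, higher in 7 of 8 OIR libraries. It was 6.98 to 17.2 in OIR marker-positive cells (median 8.51) and 5.19 to 14.0 in OIR marker-negative cells (median 7.82). An alternative added after the values were seen left out 1010 gate cells, 340 of them marker-positive, that had Optc, Crhbp, S100b, Pdgfra, Pax2 or Igf2 or at least 2 markers of another cell type. Then 58 genes passed, 38 higher and 20 lower, 49 of them also among the 134. Of the 53 named genes 43 were tested in this set, of which 20 passed and 23 did not. Those that passed were Vegfa (0.89), Bsg (0.67), Tpi1 (0.52), Pfkp (0.54), Ldha (0.36), Cox4i2 (0.44), Plod2 (0.63), Bnip3l (0.56), Fam162a (0.63), Vim (0.67), Sparc (0.58), Glul (0.34), Sox9 (0.46), Cd9, Trf, Hsd17b2, S100a11, Ier3, Rgs2 and Pcp4 (-0.95). Those that did not pass were Slc2a1 (0.26), Gpi1 (0.28), Aldoa (0.25), Pkm (0.12), Slc16a1 (0.38), Nupr1, Appl2, Tubb2b, Fscn1, Npy, S100a6, Atf3, Klf4, Ier2, Ddit3, Mt1, Mt2, Col9a1, Cox8a, mt-Nd1, Slc6a6 (-0.48), Tsc22d1 (-0.24) and Ptgds, which turned to 0.19. Fn1, Gja1, Col18a1, Ppa1, Ntrk2, Nes and Ifitm3 were not tested there. Optc and Crhbp could not be, because cells with their RNA were left out.

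**Figure D3:**
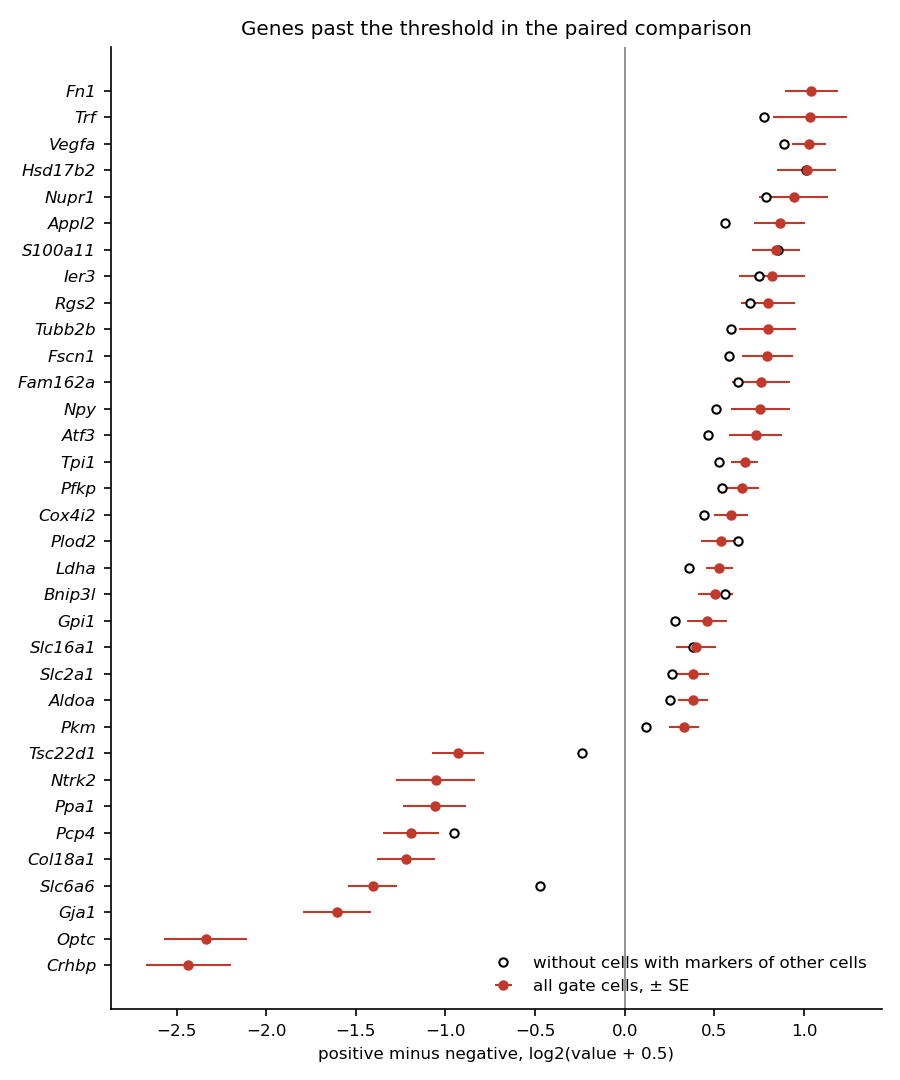
Marker-positive minus marker-negative difference on the log2(value + 0.5) scale for the largest changes and for the hypoxia and glycolysis genes past the threshold, over 11 libraries (filled, ± SE), and the same without gate cells carrying Optc, Crhbp, astrocyte genes or other cell type markers (open). Vegfa is at 1.03 in all gate cells and 0.89 in the reduced set, Slc6a6 at -1.41 and -0.48, and genes with no open circle were not tested in the reduced set.

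Leaving out 1 library at a time gave 99 to 152 genes past the threshold, and 44 of 53 named genes passed in each of these 11 fits, Vegfa (0.98 to 1.09), Bsg (0.68 to 0.77), Tpi1, Ldha, Pfkp and Cox4i2 among them. Of the others, S100a6, Nes, Slc16a1, Ddit3, Ier2, Ifitm3, Cox8a, mt-Nd1 and Pkm, Pkm was lost only without rod-depleted OIR replicate 1 at P14 (adjusted p = 0.0502). With cells thinned to 500 UMIs, their classes kept from full depth, 56 genes passed, and 30 of the 52 named genes that were tested. Vegfa (1.06), Bsg (0.60), Ldha (0.67), Tpi1 (0.45), Pfkp (0.67), Cox4i2 (0.55) and Plod2 (0.82) passed. Slc2a1 (0.33, adjusted p = 0.349), Gpi1 (0.50, adjusted p = 0.14), Slc16a1 (0.36, adjusted p = 0.268), Aldoa (0.40, adjusted p = 0.0532), Pkm (0.40, adjusted p = 0.0724) and Bnip3l (0.82, adjusted p = 0.0586) did not, so 3 of the 7 glycolysis genes and 3 of the 5 hypoxia genes passed. The other 16 that did not pass were Glul (0.32, adjusted p = 0.0586), Nupr1 (0.79, adjusted p = 0.0889), Fam162a (0.69, adjusted p = 0.108), S100a11, Tubb2b, Npy, Tsc22d1, Ptgds, Klf4, Ier2, Ddit3, Cox8a, mt-Nd1, Mt1, Mt2 and Ifitm3. All 22 had the same sign as with all UMIs.

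In OIR libraries the levels followed the number of marker genes detected in a cell, again at matched UMIs. Across the 8 libraries the median Vegfa level was 8.30 per 10000 in cells with 0 marker genes, 20.3 with 1 and 22.3 with 2 or 3, and it went up at both steps in 7 of 8 libraries. Bsg had medians of 30.0, 52.0 and 66.0, and Tpi1 5.99, 9.04 and 11.7, both upward in 8 of 8. Vim went 13.2, 25.1 and 31.6 (8 of 8), Bnip3 1.87, 2.98 and 5.08 (6 of 8), and Cox4i2 4.81, 8.69 and 10.6 (6 of 8). The hypoxia list, Vegfa included, summed to 39.6, 58.8 and 73.3 (8 of 8) and the glycolysis list to 94.4, 117 and 135 (7 of 8). Glul was at 66.4, 98.2 and 99.3 (5 of 8), and the summed list of Müller markers outside the gate at 312, 354 and 348 (5 of 8), so these 2 differed little between 1 and more marker genes. Fn1 was at 0.597, 1.55 and 1.86 and upward in 4 of 8. The step from 0 to 1 marker gene largely repeats the comparison of marker-positive with marker-negative cells, in which most of the single genes shown had passed. It therefore adds no separate support. More marker genes in a cell also means more UMIs of marker RNA, and these values are a description.

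**Figure D4:**
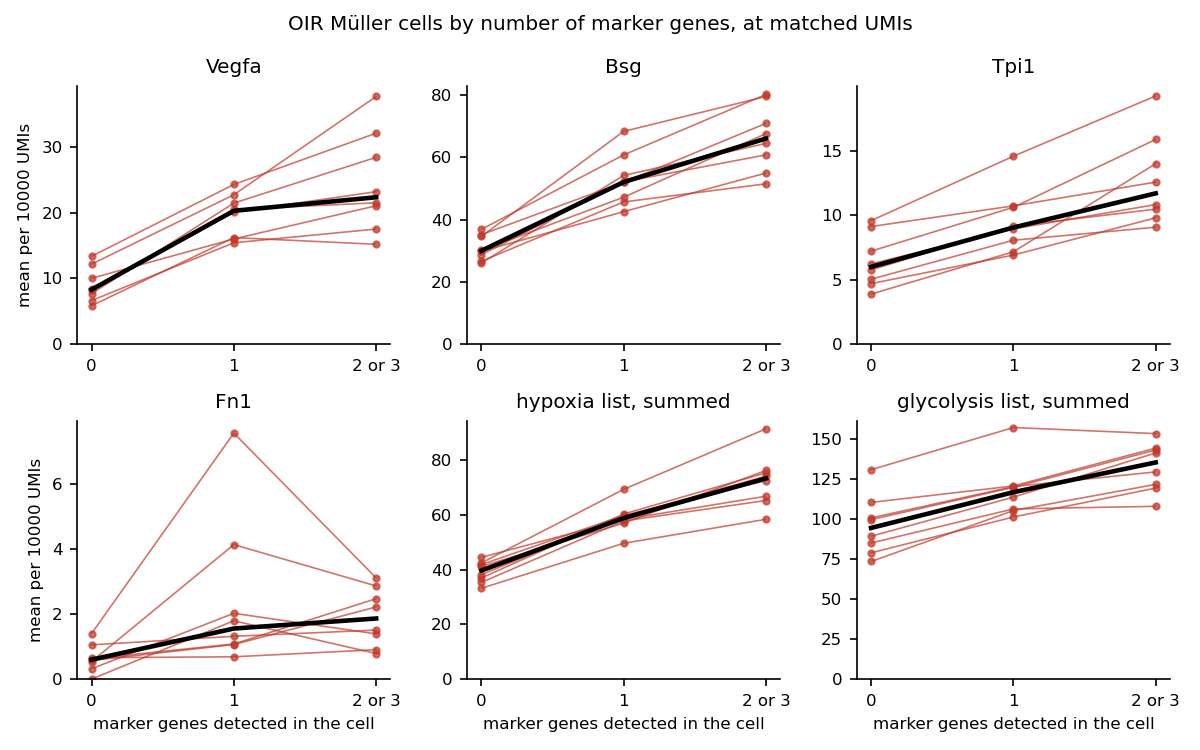
Mean level per 10000 UMIs in OIR Müller cells with 0, 1 and 2 or 3 marker genes detected, at matched UMIs, 1 thin line per library (8) and the median in black. Bsg, Tpi1 and the summed hypoxia list go up at both steps in 8 of 8 libraries, Vegfa and the glycolysis list in 7 and Fn1 in 4.

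The genes whose detection was most like the rule genes' own, by the median over 11 libraries of the difference in percent of cells with a UMI at matched depth, began with Vegfa. Vegfa was detected in a median 82.1% of marker-positive and 49.6% of marker-negative cells, a median difference of 28.5 points. Cox4i2 followed with 73.5% of marker-positive and 45.4% of marker-negative cells (24.5 points). The next 8 were Trf, Fxyd6, Rgs2, Bnip3, Sat1, Fam162a, Hsd17b2 and Pfkp, the last with 16.6 points. Vegfa, Cox4i2, Fxyd6, Sat1, Hsd17b2 and Pfkp were detected more often in 11 of 11 libraries, and Bnip3 in 8 of 11.

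The receptor genes of the 2 peptides were detected less often in Müller cells than in endothelial-gate cells, by a wide margin for Aplnr and Ramp2 and a smaller one for Calcrl. Aplnr, the apelin receptor, was detected in 0.332% of marker-positive Müller cells but in 38.0% of 255 endothelial-gate cells. Ramp2, which forms the adrenomedullin receptor with Calcrl, was found in 1.99% of marker-positive Müller cells and 79.2% of endothelial-gate cells. Calcrl was found in 6.31% of marker-positive Müller cells and 16.9% of endothelial-gate cells. Receptors of Vegfa were found in Müller cells too: Kdr in 60.5% of marker-positive and 48.3% of marker-negative cells, and Flt1, a decoy-like receptor, in 51.1% of marker-positive and 33.9% of marker-negative cells. At matched UMIs neither passed the test, with differences of 0.07 for Kdr (adjusted p = 0.763) and 0.27 for Flt1 (adjusted p = 0.0575).

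Whether the marker-positive minus marker-negative difference was another one in OIR than in NORM was tested with age and fraction as covariates, over 8 OIR and 3 NORM libraries. Of 1954 genes 26 passed (1.33%), 15 with a higher signed difference in OIR than in NORM (0.768%) and 11 with a lower one (0.563%), with an all-gene median of 0.04. Bnip3, a mitophagy receptor and HIF target, stood at 2.42 to 6.44 per 10000 in OIR marker-positive cells (median 3.76), against 1.09 to 2.74 (median 2.04) in OIR marker-negative cells. In NORM it was 0.951, 0.457 and 1.04 in marker-positive cells, against 1.61, 1.15 and 1.46 in marker-negative cells. Marker-positive cells were thus higher in 8 of 8 OIR libraries and lower in 3 of 3 NORM libraries, by a mean of 0.82 in OIR and -0.56 in NORM (OIR minus NORM 1.48 ± 0.236, adjusted p = 0.00139). S100a6 gave 1.26 in OIR and -0.47 in NORM (1.79 ± 0.241, adjusted p = 0.000205), also without overlap. Bnip3, S100a6 and Cst3 passed in each of 11 fits that left out 1 library.

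Nupr1 (OIR minus NORM 1.46), Fam162a (1.20) and Rgs2 (1.09) were higher in marker-positive cells of OIR and near 0 in NORM, with mean differences of 1.295 in OIR and 0.0058 in NORM for Nupr1, 1.07 in OIR and -0.074 in NORM for Fam162a, and 1.10 in OIR and 0.0027 in NORM for Rgs2. In Kmt2e (1.31), Sema6a (1.18) and Magi3 (1.12) the NORM difference was the further one from 0, as their RNA was lower in NORM marker-positive cells. Their mean differences were 0.24 in OIR and -0.95 in NORM for Kmt2e, 0.14 in OIR and -1.02 in NORM for Sema6a, and 0.45 in OIR and -0.57 in NORM for Magi3. The adjusted p was 0.0187 for Kmt2e and 0.0251 for the other 5. Vegfa did not pass (0.34 ± 0.191, adjusted p = 0.497), with mean differences of 1.13 in OIR and 0.75 in NORM, and Glul did not either (0.45, adjusted p = 0.0528). Of the hypoxia list's 11 tested genes only Bnip3 passed (median 0.28), and of 12 glycolysis genes none (median 0.22). When the P14 whole-retina library of NORM was left out 3 genes passed. The count was 15 when the P17 rod-depleted library of NORM was left out, 13 when that of OIR was, 45 without whole-retina OIR replicate 1 at P14, and 12 without rod-depleted OIR replicate 2 of that age. Nupr1, Kmt2e, Fam162a, Sema6a, Magi3 and Rgs2 each failed in 4 or 5 of those 11 fits, always including the fit that left out the P14 whole-retina library of NORM.

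**Figure D5:**
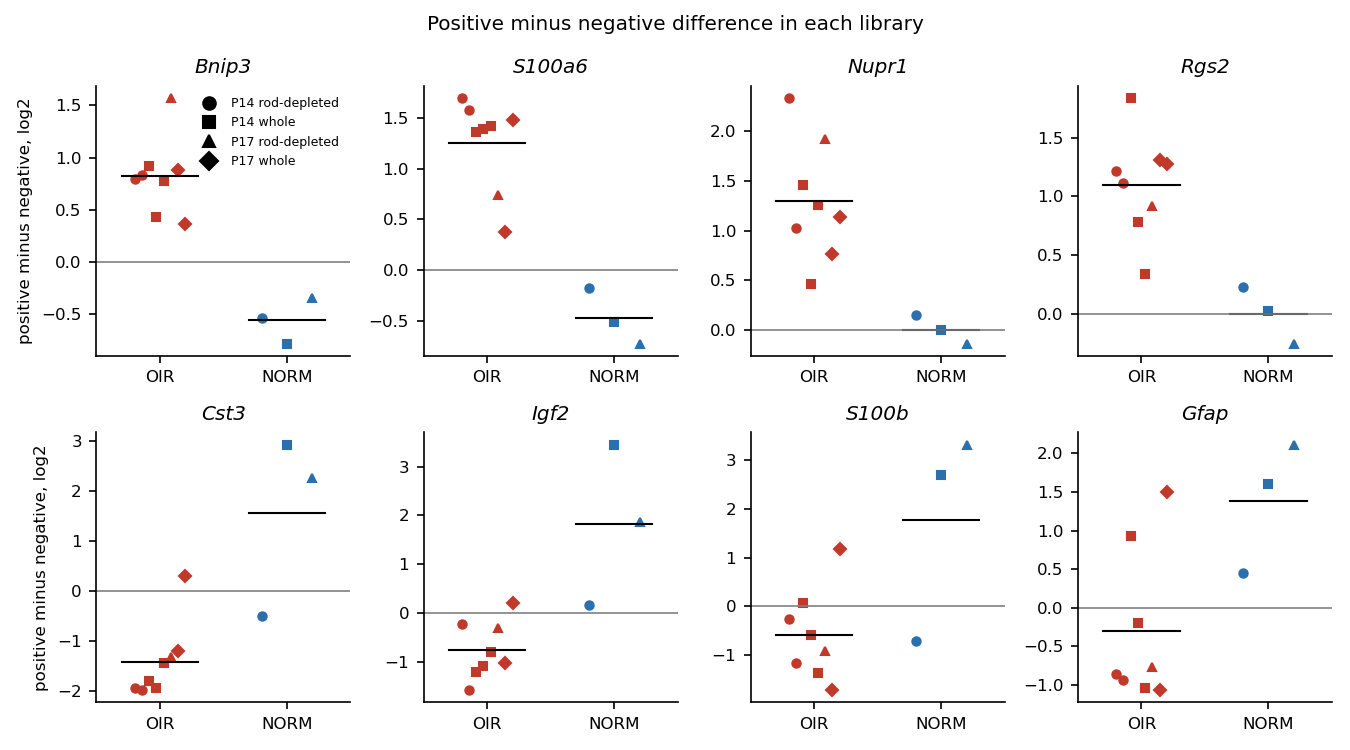
Marker-positive minus marker-negative difference of each library on the log2(value + 0.5) scale, in OIR (red, 8 libraries) and NORM (blue, 3 libraries), with the group mean as a line and a symbol for age and fraction. Bnip3, S100a6, Nupr1 and Rgs2 have every OIR library above every NORM library, while Cst3, Igf2, S100b and Gfap are led by 2 NORM libraries.

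The signed difference was lower in OIR than in NORM for Cst3 (OIR minus NORM -3.33), Igf2 (-2.78), S100b (-2.58), Pdgfra (-2.23), Rgs5 (-2.22), Gfap (-1.94), Ntrk2 (-1.55) and Gstm1 (-1.47). Of these 8 genes, 7 had a negative mean difference in OIR and a positive one in NORM: Cst3 had -1.42 in OIR and 1.56 in NORM, Igf2 -0.76 in OIR and 1.82 in NORM, S100b -0.59 in OIR and 1.77 in NORM, Pdgfra -0.47 in OIR and 1.496 in NORM, Rgs5 -0.89 in OIR and 1.76 in NORM, Gfap -0.30 in OIR and 1.39 in NORM, and Gstm1 -0.72 in OIR and 0.66 in NORM. Ntrk2 was at -1.43 in OIR and -0.047 in NORM, so its RNA was lower in marker-positive cells mainly in OIR. S100b, Pdgfra and Gfap are markers of astrocytes and Rgs5 of pericytes. In the NORM libraries with 27 and 34 marker-positive cells these RNAs were high in that class: the rod-depleted NORM library at P17 had Cst3 at 150, Rgs5 at 35.9, S100b at 17.6 and Gfap at 7.06 per 10000 in marker-positive cells, against 31.0, 1.79, 1.33 and 1.25 in marker-negative cells. The astrocyte list summed to 7.11 to 21.3 in OIR marker-positive and 8.94 to 42.4 in NORM marker-positive cells. The pericyte list summed to 0.452 to 11.3 in OIR and 2.71 to 44.3 in NORM marker-positive cells, with Cspg4 at 0 in NORM. Without the 1010 cells described above, 9 genes passed (6 with a higher and 3 with a lower signed difference in OIR), Bnip3, S100a6, Sema6a, Rgs2 and Gstm1 among them, and Cst3 was at 0.042. Igf2, S100b and Pdgfra could not pass there, because cells with their RNA were left out.

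OIR and NORM were also compared directly within marker-positive cells, over 8 OIR and 3 NORM libraries with age and fraction as covariates. Of 1948 genes 25 passed (1.28%), 17 higher (0.873%) and 8 lower (0.411%) in OIR, with an all-gene median of 0.03. Nupr1 was at 1.31 to 4.38 per 10000 in OIR (median 2.57), against 0.162, 0 and 0.384 in NORM. Bnip3 averaged 4.13 ± 1.24 in OIR and 0.827 ± 0.326 in NORM (SD, n = 8 and 3), and all 8 OIR libraries lay above the NORM libraries for both genes. The differences were 2.35 ± 0.272 for Nupr1 (adjusted p = 0.000533) and 1.91 ± 0.239 for Bnip3 (adjusted p = 0.000703). Nxph4, which encodes a secreted neurexophilin, was higher by 1.93 (adjusted p = 0.000724), S100a6 by 1.94 (adjusted p = 0.00382) and Fam162a by 1.41 (adjusted p = 0.00289). Rras, a small GTPase, was higher by 1.52 (adjusted p = 0.00334), Ptgds by 1.46 (adjusted p = 0.0077) and S100a10 by 1.64 (adjusted p = 0.0497). Vegfa averaged 21.3 ± 5.18 in OIR and 13.4 ± 3.85 in NORM, which did not pass (0.57 ± 0.208, adjusted p = 0.194). Glul (-0.40, adjusted p = 0.208) and Gfap (-0.11, adjusted p = 0.956) did not pass either.

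Among the 8 genes lower in OIR marker-positive cells were Igf2 (-2.30), Cst3 (-1.96), S100b (-1.82), Sparcl1 (-1.76), Pdgfra (-1.49), the hypoxia-inducible factor gene Epas1 (-0.99) and Kcne1l (-0.92). Igf2, Cst3, S100b and Pdgfra are those named above with high values in NORM marker-positive cells. By the run dates in the sample descriptions, rod-depleted OIR replicate 2 and whole-retina OIR replicate 1 at P14 each share a run with the P14 NORM library of the same fraction. Over these 2 pairs 28 genes passed, 22 higher and 6 lower, 12 of them among the 25. This fit of 4 libraries, with oxygen and run as terms, had 1 degree of freedom left for the spread between libraries. Its p-values therefore rest largely on the spread that limma shares across genes. Nupr1 (2.75), S100a6 (2.70), Nxph4 (2.21) and Bnip3 (2.15) passed there, whereas S100b (-1.35, adjusted p = 0.0507), Pdgfra (-1.55, adjusted p = 0.222), Epas1 (-0.85, adjusted p = 0.279) and Kcne1l (-1.03, adjusted p = 0.13) did not. The descriptions give no such pair at P17. Without the 1010 cells 11 genes passed, all higher in OIR, and Cst3 (0.24) and Epas1 (0.25) turned sign. Igf2, S100b and Pdgfra could not pass there, because cells with their RNA were left out, so the balance of directions was partly set by that rule. Bnip3, Nupr1, Nxph4 and Cst3 passed in each of 11 fits without 1 library. When a P14 library of NORM was left out, the count was 7 (whole retina) or 61 (rod-depleted). It was 13 when either rod-depleted library of P17 was left out, and also 13 without rod-depleted OIR replicate 2 at P14. S100a6, Fam162a, Rras and Ptgds failed only in the fit that left out the P14 whole-retina library of NORM, whereas S100a10 failed in 8 of 11 fits. In that library 34 marker-positive cells give each value, and the match of its columns to its sample is less sure than the others, because they carry another replicate number than the sample's title.

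Within OIR, marker-positive cells of 3 P17 libraries were compared with those of 5 P14 libraries, with fraction as a covariate. Of 1948 genes 15 passed (0.77%), 9 higher (0.462%) and 6 lower (0.308%) at P17. This balance turned to 3 higher and 7 lower with cells thinned to 500 UMIs, to 7 higher and 13 lower without cells that had markers of other cell types, and to 3 higher and 4 lower with a replicate block. Apoe, the lipid carrier that Müller glia secrete, was at 179, 170 and 183 per 10000 at P17 and at 116, 91.2, 89.7, 59.5 and 88.4 at P14. The 2 ages did not overlap (1.04 ± 0.18, adjusted p = 0.0125). Cst3, the protease inhibitor cystatin C, was higher by 1.79 (adjusted p = 0.00609), the pericyte gene Rgs5 by 1.89 (adjusted p = 0.00978), the transcription factor Srf by 1.24 (adjusted p = 0.0186), the matricellular CTGF by 1.20 (adjusted p = 0.0125) and the amino acid carrier Slc38a3 by 1.04 (adjusted p = 0.0271). Atxn2l (1.18, adjusted p = 0.0186) and the ion pump regulator Fxyd6 (1.16, adjusted p = 0.0284) were higher too. Lower at P17 were Ifrd1 (-1.47), Nnat (-1.29), Itih5 (-1.25), the differentiation inhibitor Id2 (-1.19), Tiparp (-1.07) and Dars (-0.95). Vegfa averaged 26.9 ± 2.98 at P17 and 17.9 ± 2.15 at P14 (SD, n = 3 and 5), with all 3 P17 libraries above those of P14, but did not pass (0.58 ± 0.185, adjusted p = 0.219).

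No gene passed between the ages without whole-retina OIR replicate 2 at P17, where 121 genes had an unadjusted p below 0.05 in limma, and 5 passed without replicate 1. The count was 25 without rod-depleted OIR replicate 1 or whole-retina OIR replicate 1 at P14, and 35 when the P17 rod-depleted library was left out. Depth differs with age in whole retina, since the 2 whole-retina OIR libraries at P17 had 3157 and 3127 UMIs per marker-positive cell (median), against 1479 to 2323.5 in whole-retina OIR libraries at P14. The part of depth in these age differences was not tested. Thinning to 500 UMIs kept the cell classes set at full depth, so it cannot show whether deeper cells became marker-positive more readily. With cells thinned in this way, 7 of 13 named genes that were tested passed: Apoe (1.04), Cst3 (1.69), Rgs5 (2.01), Ifrd1 (-1.67), Nnat (-1.51), Itih5 (-1.75) and Id2 (-1.26). Without cells that had markers of other cell types Cst3 was at 0.12 (adjusted p = 0.842) and CTGF at 0.83 (adjusted p = 0.0779), Apoe passed at 1.05, and Rgs5, one of the markers by which cells were left out, was not tested.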

How the data were processed

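Single-cell RNA was measured in 12 libraries. Per the submitters' processing notes, bcl2fastq and STAR 2.4.0 with mm10/GRCm38 were used. The authors deposited natural log values of 1 plus UMIs per 10000 of a cell's total, and 5799 cell columns in 7 sets matched no sample used here and were not used. Values were returned to a linear scale and averaged per library over marker-positive cells and over marker-negative cells weighted to the same UMI distribution (bins of 0.5 on log2 UMIs). limma 3.58.1 (R 4.3.3, with a trend) was run on log2(value + 0.5), paired within library for the marker-positive minus marker-negative comparison, in libraries with at least 10 cells per class. Genes entered a fit if their mean reached 1 per 10000 and 50% or more of the libraries had some of their RNA. Tests were two-sided with Benjamini-Hochberg adjustment over all genes tested (threshold 0.05), and the script was tested on simulated data. The written plan allowed counts or log values, and the log test was used. Doublets were not called; cells with the highest 5% of UMIs and cells with markers of other types were left out in alternatives. Symbols were matched to GENCODE M21 (20007 matched).

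Named genes were the 14 largest increases and 10 largest decreases of the paired comparison with the same sign in at least 80% of libraries, members of the hypoxia and glycolysis lists past the threshold, up to 4 members with the smallest p of each other list, the 8 largest changes each way in the other comparisons, and Vegfa, Gfap and Glul. The marker genes, lists and members were chosen with earlier results of these data known. Intervals are exact binomial intervals. A cell without marker RNA may still express the gene below its depth. Results of a few genes that the naming rule covers are not reported here.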

Additional observations from a re-analysis of the deposited data

Results flagged for a closer look

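Among the 53 named genes of the paired comparison, 3 had 1 OIR library whose marker-positive minus marker-negative difference stood apart from the other 7 (gap over range above 0.526, which by chance holds for about 1 in 20 groups). Gja1 was at a difference of 0.0 in whole-retina OIR replicate 1 at P14, where both classes of cells had none of its RNA. Sparc was at 1.13 in the same library, where the weighted marker-negative cells amount to 15.6 effective cells of 45. Mt2 was at 0.20 in the rod-depleted OIR library at P17.

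For 16 named genes the difference itself was tested between OIR and NORM and passed. The signed difference was higher in OIR than in NORM for S100a6 (OIR minus NORM 1.79), Bnip3 (1.48), Nupr1 (1.46), Kmt2e (1.31), Fam162a (1.20), Sema6a (1.18), Magi3 (1.12) and Rgs2 (1.09), of which Kmt2e, Sema6a and Magi3 were further from 0 in NORM. It was lower in OIR for Cst3 (-3.33), Igf2 (-2.78), S100b (-2.58), Pdgfra (-2.23), Rgs5 (-2.22), Gfap (-1.94), Ntrk2 (-1.55) and Gstm1 (-1.47), of which Ntrk2 was further from 0 in OIR. Astrocyte and pericyte RNA was high in the marker-positive cells of 2 NORM libraries, and its part in the second set was not tested beyond leaving those cells out.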

How the results depend on the processing

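Over all named genes and alternatives, 2296 values kept their direction and their side of the threshold, 506 kept the direction but no longer passed, 3 passed in addition and 23 turned sign. In the paired comparison the count of genes past the threshold, 134, became 247 (92 higher, 155 lower) with a filter at a mean of 0.2, 214 (128 and 86) with libraries weighted by cells, 79 (57 and 22) without cells with Optc or Crhbp, 58 (38 and 20) also without cells with astrocyte genes or other cell type markers, 56 (31 and 25) with cells thinned to 500 UMIs, 208 (137 and 71) in OIR alone and 25 (16 and 9) in NORM alone. With no filter on low values it was 169, but 34.9% of these were higher, against 58.2% of the 134. Leaving out 1 library each gave 99 to 152. In NORM alone Fam162a (-0.074), Slc16a1 (-0.11), S100a6 (-0.47) and Ifitm3 (0.17) turned sign, and Ptgds did so without Optc or Crhbp cells (0.16) and in the strictest set (0.19).

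For the OIR term of that difference the count, 26, became 3 with no filter, 9 with a gate of 4 genes, 9 without cells with other cell type markers and 9 in the strictest set, where Cst3 was at 0.042. Leaving out 1 library gave 3 to 45. For OIR minus NORM the count, 25, became 49 with the filter at 0.2, 7 weighted by cells, 13 without cells with other cell type markers and 11 in the strictest set, where Cst3 (0.24) and Epas1 (0.25) turned sign, and 7 to 61 without 1 library. Gfap, which did not pass, turned to 0.02 weighted by cells, 0.21 with a gate of 4 genes, 0.90 without other cell type markers, 0.56 without the highest 5% of UMIs, 0.14 without Optc or Crhbp cells, 1.40 in the strictest set, 0.89 in the P14 pairs that share a run date in the descriptions, and ranged from -0.67 to 0.65 without 1 library each. For P17 minus P14 the count, 15, became 24 with the filter at 0.2, 8 with no filter and 0 to 35 without 1 library. There Gfap turned to -0.92 and -0.91 without cells of other types, -0.17 thinned, and ranged from -0.14 to 0.94 without 1 library each. The median share of marker-positive cells was 27.5% in OIR and 2.44% in NORM with cells thinned to 300 UMIs, and 37.0% in OIR thinned to 500. The causes of these changes were not tested, save that fewer genes, cells or samples entered the reduced sets.

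Replicate numbers were not used to pair the libraries in the main fits. Deviations of same-numbered OIR libraries of 2 groups correlated at -0.18 to 0.31. In a group of 2 libraries the deviations mirror each other, so few of these values are independent and they cannot settle whether the numbers pair libraries. With a replicate block 19 genes passed for the OIR term, 11 for OIR minus NORM and 7 for P17 minus P14. The paired comparison without its library block (no replicate block) gave 24 (11 and 13). Limits are the 3 NORM libraries with 27 to 73 marker-positive cells each, the 87 NORM members that rest on 1 UMI, and the alternatives that leave out Optc, Crhbp or astrocyte genes or use NORM alone, which were chosen after seeing the data.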
